A study of Mus musculus with 17 samples.

Results

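Zinc finger protein genes with the symbols Zfp500 to Zfp999 were followed through B cell differentiation by the accessibility of the chromatin at and around their starts. The members were the accessible regions on autosomes whose nearest annotated start, within 10000 bp, belonged to such a gene. There were 225 such regions, of 138 genes, among the 66177 regions of the whole assay for transposase-accessible chromatin (ATAC-seq), in which a transposase cuts and tags open DNA. Of them, 153 regions of 129 genes lay within 1000 bp of the start and are called promoter regions here, 131 of the 225 overlapped the start itself, and 72 regions of 50 genes lay farther away and are called distal. Symbol, chromosome and distance to the start fixed membership, and the rule itself used no accessibility value. At the edge of the distance rule, regions 9979 bp from the start of Zfp961 and 8900 bp from that of Zfp622 were inside, and regions 10151 bp from Zfp664 and 10196 bp from Zfp710 were outside.

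Most of these proteins carry tandem C2H2 zinc fingers, each of which folds around a zinc ion and reads a few bases of DNA. Many also carry a KRAB box, which recruits the co-repressor Trim28 (KAP1) and through it the histone methyltransferase Setdb1 and HP1 proteins, a pathway best known for silencing transposable elements together with DNA methylation. The KRAB genes arose by tandem duplication and stand in clusters, and the genes without a KRAB box include factors of very different roles, from transcriptional co-regulators to ribosome-associated proteins.

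The cells came from B6;129S4 mice with loxP-flanked Dnmt3a and Dnmt3b, the de novo DNA methyltransferases. Dnmt3-deficient mice (KO) were Dnmt3a fl/fl and Dnmt3b fl/fl and carried Cre in the B lineage, and their controls (C) were littermates with the same floxed alleles and no Cre, aged 8 to 12 weeks when experiments began, so both genotypes carried the floxed genes and only the KO carried Cre. Cre acts here from the early B cell stages in the bone marrow onward, so deletion preceded all 3 cell types. Naive B cells (nB, B220+ GL7- Fas-) came from the lymph nodes of unimmunized male mice, with 3 C and 2 KO libraries of 1 mouse each. Germinal center B cells (GCB, B220+ GL7+ Fas+ PE+) were sorted for binding of phycoerythrin (PE) from the lymph nodes of mice immunized with PE 30 days earlier, with 2 C and 4 KO libraries of 2 pooled mice of 1 sex or the other. Bone marrow plasma cells (BMPC, CD138+) came from immunized female mice at the same day, with 3 C and 2 KO libraries of 1 mouse each, and a further KO BMPC sample was not analysed here. Cell type therefore cannot be told apart from sex between nB and BMPC, from tissue for BMPC, or from immunization for nB.

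Values are RPPM, that is, reads in a region per 1000000 reads in all regions of that library. The 16 libraries held 907959 to 8232313 reads in regions, and GCB libraries were the shallowest, at 907959 to 2280954. A count of 3 reads was worth 0.364 to 1.41 RPPM outside the KO GCB group and 1.32 to 3.30 RPPM in it. Of the cell type markers, the start of Tnfrsf17 (BCMA) had a mean of 20.0 RPPM in C BMPC against 0.392 in C nB, and that of Fcer2a (CD23) had 42.4 in C nB against 1.20 in C BMPC. None of the 5 T cell genes checked and 1 of the 6 myeloid genes (Itgam, summed level 0.560 to 5.31 RPPM over all libraries) had a region within 1000 bp of its start. Of 3 erythroid genes, 2 had one, with a summed level of 34.1 to 60.5 RPPM in nB and GCB libraries and 63.9 to 74.7 in BMPC libraries, nearly all of it from the region of Klf1. Its part in the results was not tested. No region informs on the deleted exons, so the genotype labels were not checked from these data.

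The sequences of 6 regions, chosen after their values were seen, are shown as examples of the patterns that follow. Zfp563 and Zfp658 were high in BMPC, Zfp651 and Zfp687 in GCB and BMPC, and Zfp667 and Zfp746 were highest in GCB. Printed are the central 300 bases on the plus strand of mm9, with capitals on the letters CAGCTG (an E-box bound by E2A), GAAAC (an IRF core), GGAAGT (a PU.1 core) and ATGCAAAT (an octamer), searched on both strands. Among the 53185 regions of at least 300 bp in the whole assay, 20.8% of central windows held the E-box, 55.0% the IRF core, 30.4% the PU.1 core and 3.97% the octamer, so these matches describe the windows and name no bound factor.
Zfp563, intron, chr17:33227823-33228122: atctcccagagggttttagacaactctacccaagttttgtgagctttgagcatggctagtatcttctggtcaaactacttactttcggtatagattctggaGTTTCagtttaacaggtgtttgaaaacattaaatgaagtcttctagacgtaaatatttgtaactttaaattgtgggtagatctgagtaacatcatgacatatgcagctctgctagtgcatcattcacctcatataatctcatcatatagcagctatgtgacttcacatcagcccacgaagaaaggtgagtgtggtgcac
Zfp658, upstream, chr7:50810076-50810375: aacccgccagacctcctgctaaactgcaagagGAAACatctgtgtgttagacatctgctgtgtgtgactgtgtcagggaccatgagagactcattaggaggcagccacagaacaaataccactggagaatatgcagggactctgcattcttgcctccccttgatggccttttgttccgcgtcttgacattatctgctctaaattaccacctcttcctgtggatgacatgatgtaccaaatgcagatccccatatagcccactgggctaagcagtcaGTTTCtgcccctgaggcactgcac
Zfp651, intron near the start, chr9:121669779-121670078: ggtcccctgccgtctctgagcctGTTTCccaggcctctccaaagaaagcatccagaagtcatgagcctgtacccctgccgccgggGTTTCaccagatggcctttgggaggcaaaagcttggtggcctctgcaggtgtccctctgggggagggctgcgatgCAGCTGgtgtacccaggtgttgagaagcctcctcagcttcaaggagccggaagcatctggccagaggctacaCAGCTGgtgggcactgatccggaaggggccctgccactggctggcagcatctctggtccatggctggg
Zfp667, upstream of the start, chr7:6237048-6237347: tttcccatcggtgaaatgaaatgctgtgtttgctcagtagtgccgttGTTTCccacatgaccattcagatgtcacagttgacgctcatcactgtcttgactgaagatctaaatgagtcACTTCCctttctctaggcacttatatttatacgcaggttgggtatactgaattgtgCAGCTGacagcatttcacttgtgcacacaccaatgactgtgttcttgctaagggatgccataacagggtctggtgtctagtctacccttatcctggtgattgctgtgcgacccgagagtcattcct
Zfp687, upstream, chr3:94826944-94827243: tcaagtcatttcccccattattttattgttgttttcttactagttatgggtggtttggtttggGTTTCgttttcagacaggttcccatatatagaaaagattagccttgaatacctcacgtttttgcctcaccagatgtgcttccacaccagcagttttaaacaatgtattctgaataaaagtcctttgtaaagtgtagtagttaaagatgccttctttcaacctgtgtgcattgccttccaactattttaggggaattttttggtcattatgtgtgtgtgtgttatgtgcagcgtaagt
Zfp746, intron, chr6:48024066-48024365: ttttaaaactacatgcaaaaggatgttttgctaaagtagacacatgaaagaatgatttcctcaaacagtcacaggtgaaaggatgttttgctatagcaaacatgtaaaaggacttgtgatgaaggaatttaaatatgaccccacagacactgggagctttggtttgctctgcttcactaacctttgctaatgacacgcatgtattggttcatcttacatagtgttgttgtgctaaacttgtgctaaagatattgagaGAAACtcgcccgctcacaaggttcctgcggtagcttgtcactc
The Zfp651 window held 2 E-boxes and 2 IRF cores, the Zfp667 window 1 E-box, 1 IRF core and 1 PU.1 core, and the Zfp658 window 2 IRF cores. The windows of Zfp563, Zfp687 and Zfp746 each held 1 IRF core. All 6 thus held the IRF core, the most common of these letter strings in the assay, and none held the octamer.

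Most of the member promoter regions were open in every cell type. Only regions called accessible could be members, so this does not describe genes without such a region. The median promoter region had 33.3 RPPM in C nB, 26.4 in C GCB and 34.4 in C BMPC, against 29.4, 23.9 and 32.4 for all 15011 promoter regions, and 117 of the 153 had a mean of at least 10 RPPM in all 6 groups. Distal regions were weaker, at medians of 6.07, 5.40 and 6.03 RPPM, and 13 of 72 reached 10 RPPM in every group. Member promoters were slightly poorer in CpG than promoters at large, with a median GC content of 55.1% against 58.5% and an observed to expected CpG ratio of 0.646 against 0.688. The letters AAGATGGCG, the core bound by YY1, were present in 6.54% of member promoter regions and 4.76% of all promoter regions, and the ETS motif CCGGAAGT, which contains the PU.1 core, in 9.15% and 9.17%.

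Per kilobase of region, the highest means over the 6 groups were at the starts of Zfp869 (94.5 RPPM per kb), Zfp574 (84.4), Zfp566 (79.3) and Zfp708 (73.0), followed by a region 1114 bp upstream of the start of Zfp516 (72.5). The Zfp869 promoter ranged only from 98.3 to 127 RPPM over all 16 libraries. Zfp566, by contrast, had 101 to 104 RPPM in C nB, 62.9 and 51.5 in C GCB and 88.3 to 90.8 in C BMPC, so that GCB lay below both other cell types without overlap. Its log2 fold change between C GCB and C nB fell short of the 2-fold threshold used below, at -0.84 ± 0.11 (SE, adjusted p = 5.82e-07).

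Differences between cell types were tested for each of the 66177 regions by limma, a linear model that shares its variance estimate across regions, on log2(RPPM + 1), and a region was called when its adjusted p was at most 0.01 and its fold change at least 2. All log2 fold changes below are on that scale, which understates changes of weak regions. Each region had a common variance for all groups, so an SE does not measure the spread within the groups compared. In the 3 comparisons of control cells, 65 of the 225 regions, of 44 genes, were called at least once, and 94 genes had no called region. Between C GCB and C nB, 17 member regions (7.56%) were higher in GCB and 14 (6.22%) lower, against 14.2% and 8.47% of all regions. Between C BMPC and C nB, 21 were higher (9.33%) and 19 lower (8.44%), against 18% and 20.1%. Between C BMPC and C GCB, 23 were higher (10.2%) and 21 lower (9.33%), against 11.3% and 19.1%.

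Promoters made up 153 of the 225 members, and calls were less frequent among promoters than among distal regions. Of member promoter regions, 12.4% were called between C GCB and C nB, 10.5% between C BMPC and C nB and 16.3% between C BMPC and C GCB, where all promoter regions gave 16%, 17.4% and 18.3%. Member distal regions gave 16.7%, 33.3% and 26.4%, against 22.3%, 40.7% and 32% of all distal regions. Of the 220 regions of Zfp genes with other numbers, 36, 42 and 53 were called in the same order. The differences between these shares were not tested.

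**Figure D1:**
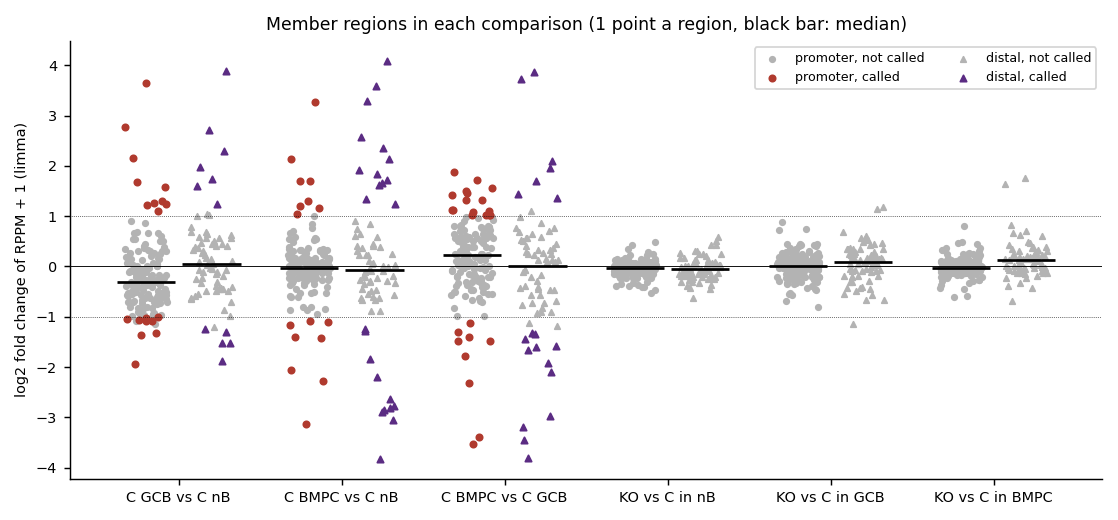
Log2 fold change of RPPM + 1 (y axis) of the 225 member regions in 6 comparisons (x axis). Each point is a region, circles are promoter and triangles distal regions, coloured points were called and the black bars are medians. Called regions lie in the 3 cell type comparisons, up to 4.09 for Zfp563, and the 3 genotype comparisons hold none.

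The 2 largest fitted rises from C nB to C BMPC among the 225 member regions were at Zfp563 and Zfp658, both KRAB genes. In the intron of Zfp563 (1242 bp downstream of the start, chr17:33227555-33228390), whose central sequence is printed above, C BMPC libraries had 21.5, 30.1 and 27.2 RPPM and KO BMPC libraries 27.1 and 25.2. The 5 nB libraries had at most 0.984 RPPM there and the 6 GCB libraries at most 2.2. Every BMPC library thus lay far above every other library, and the fitted change from C nB to C BMPC was 4.09 ± 0.35 (SE, adjusted p = 8.75e-11). The start of Zfp563 itself did not rise with it, with means of 45.5 RPPM in C nB and 35.9 in C BMPC, a change of -0.33 ± 0.18 that was not called.

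At Zfp658 the opening took in both a distal region and the promoter. The region 7115 bp upstream of its start (chr7:50809828-50810624) had 41.7, 37.6 and 30.8 RPPM in C BMPC and 37.4 and 42.2 in KO BMPC. It had 1.67 to 2.83 RPPM over the nB libraries and 1.40 to 7.71 over the GCB libraries, the highest in the shallowest KO GCB library. Its change from C GCB to C BMPC was 3.73 ± 0.36 (adjusted p = 2.14e-09). The promoter (chr7:50817340-50819071), already open at 45.1, 44.5 and 42.1 RPPM in C nB and 24.6 and 28.1 in C GCB, rose to 95.5, 103 and 98.6 in C BMPC, so that the order GCB, nB, BMPC held without overlap. The rise was 1.16 ± 0.14 over C nB and 1.87 ± 0.15 over C GCB.

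Zfp568, a KRAB factor known to silence a placental promoter of Igf2, had a smaller plasma cell region in its own body (4981 bp downstream, chr7:30773956-30774498). C BMPC had 6.50, 5.84 and 8.41 RPPM and C nB 0.244, 0.377 and 1.12, and the change was 2.35 ± 0.42 (adjusted p = 2.59e-05). Against C GCB, with 1.76 and 0.468 RPPM, the change of 1.96 ± 0.47 was called (adjusted p = 0.000998), but not without C GCB replicate 2 (1.51, adjusted p = 0.0415). The promoter of Zfp568 stood at 35.8 ± 3.7 RPPM (SD, n = 3) in C nB and 31.8 ± 1.3 in C BMPC.

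Zfp608 lost accessibility in plasma cells at all of its regions. It is a large nuclear protein without a KRAB box, described as a repressor of the recombination-activating genes in thymocytes. Its 7 regions on chromosome 18 lie around several annotated starts, and all 7 were called lower in C BMPC than in both C nB and C GCB. At the main start (chr18:55151565-55152674) the nB libraries had 43.5 to 56.3 RPPM, the GCB libraries 47.1 to 60.7 and the BMPC libraries 8.39 to 13.3. The intronic region 6136 bp downstream (chr18:55140592-55141206) had 20.0, 15.6 and 12.5 RPPM in C nB, 16.3 and 15.0 in C GCB and 0.260, 0 and 0.311 in C BMPC, the last from 2, 0 and 2 reads. The fitted change there was -3.82 ± 0.25 from C nB to C BMPC (adjusted p = 3.65e-13).

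The other regions of Zfp608 showed the same order. The exon and intron region 529 bp downstream of a start had 29.0 to 33.2 RPPM in C nB and 2.19 to 3.11 in C BMPC. The intronic regions 8543 bp downstream and 7721 bp upstream of a start fell by 2.77 and 3.05 on the log2 scale from C nB to C BMPC. The regions 1387 and 3745 bp upstream of the inner start kept more signal, at means of 13.6 and 9.16 RPPM in C BMPC against 34.6 and 22.8 in C nB. Between C GCB and C nB no region of Zfp608 was called.

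**Figure D2:**
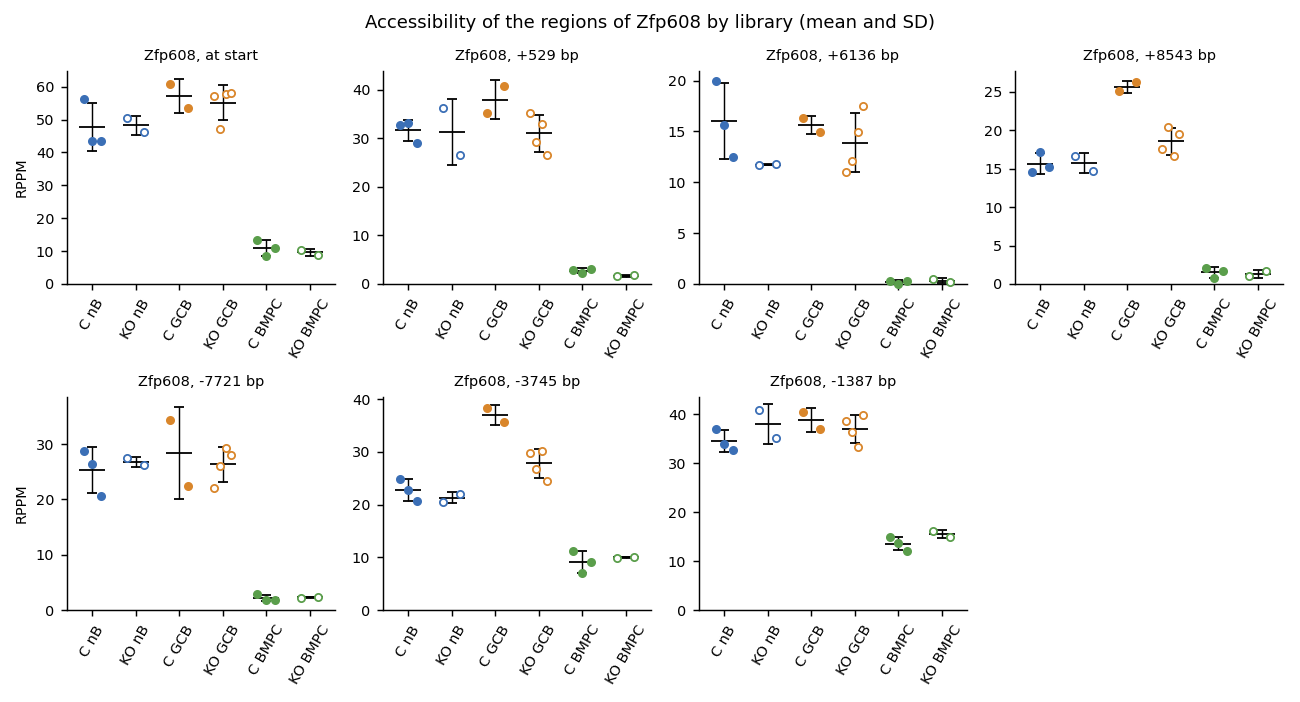
RPPM (y axis) of the 7 regions of Zfp608 in each library, by group (x axis), named by their distance to the nearest annotated start. Filled points are C and open points KO libraries, bars are the mean and SD. In every panel the BMPC libraries lie below all nB and GCB libraries.

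Zfp609, the paralog of Zfp608, moved the other way. Its promoter (chr9:65674697-65675922) had 40.6, 44.5 and 37.2 RPPM in C BMPC, 28.5, 21.7 and 24.4 in C nB and 12.3 and 17.3 in C GCB. The change from C GCB to C BMPC was called (1.42 ± 0.23, adjusted p = 1.17e-05) and that from C nB (0.70 ± 0.21) was under the fold threshold. An intronic region 3559 bp downstream had means of 0.643 RPPM in C nB, 1.39 in C GCB and 6.28 in C BMPC and was called in both comparisons of C BMPC.

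A further set of regions was nearly closed in naive B cells and open in both antigen-experienced cell types. The intronic promoter region of Zfp651 (449 bp downstream of the start, chr9:121669601-121670256) had 1.71, 1.88 and 0.744 RPPM in C nB, 28.6 and 29.5 in C GCB and 25.9, 19.3 and 21.3 in C BMPC. No nB library reached the level of any GCB or BMPC library, and the change was 3.65 ± 0.26 from C nB to C GCB (adjusted p = 1.03e-11) and 3.27 ± 0.23 to C BMPC. The region 7512 bp upstream of Zfp687 (chr3:94826872-94827316), whose product forms a complex with Zfp592 and Zmynd8, had 0, 0 and 0.558 RPPM (0, 0 and 3 reads) in C nB. It rose to 6.60 and 6.56 RPPM in C GCB and to 12.4, 9.85 and 9.19 in C BMPC, with fitted changes of 2.71 ± 0.32 and 3.30 ± 0.29.

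The KRAB genes Zfp941 and Zfp612 opened at their promoters in the same way. Zfp941 (chr7:148007631-148008246) had 0, 1 and 2 reads in the C nB libraries, 7.04 and 7.03 RPPM in C GCB and 5.85, 4.38 and 2.80 in C BMPC. Zfp612 (chr8:112603365-112604209) rose from a mean of 3.20 RPPM in C nB to 18.1 in C GCB and 12.7 in C BMPC, changes of 2.15 ± 0.26 and 1.71 ± 0.23. Its distal region 7859 bp upstream rose with it, from 0.885 to 5.39 RPPM in C GCB. In Zfp839 the intronic region 8254 bp downstream (chr12:112096744-112097135) had 0.186 to 0.731 RPPM in C nB, 23.8 and 16.9 in C GCB and 6.37 to 8.21 in C BMPC, but 60.8% of its 31-base words occur again in the genome and it holds the start of Gm3452, so its reads cannot be assigned to Zfp839 with certainty. A second Zfp839 region (6857 bp downstream) with no repeated words gave 2.31, 12.2 and 6.78 RPPM in the 3 control cell types and was called in the same direction.

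Regions open in GCB and low in both other cell types were few. An intronic region 6638 bp upstream of an inner annotated start of Zfp746, which encodes the repressor PARIS, a substrate of parkin, had 13.6 and 14.1 RPPM in C GCB and 0.974, 3.58 and 2.05 in C nB (2.30 ± 0.37, adjusted p = 1.26e-05). In C BMPC it had 0.780, 1.64 and 0.467 RPPM, and the KO GCB libraries had 11.4 to 17.5. The region 700 bp upstream of the start of the KRAB gene Zfp667 (chr7:6236914-6237481) peaked in GCB and was lowest in BMPC. It had 8.77, 17.3 and 13.8 RPPM in C nB, 28.1 and 37.0 in C GCB and 2.73, 1.09 and 2.02 in C BMPC, and the fall from C GCB to C BMPC was -3.54 ± 0.26 (adjusted p = 1.19e-11). The promoters of Zfp781 and Zfp960 were also called higher in GCB than in both others, but 100% and 73.6% of their 31-base words are repeated.

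**Figure D3:**
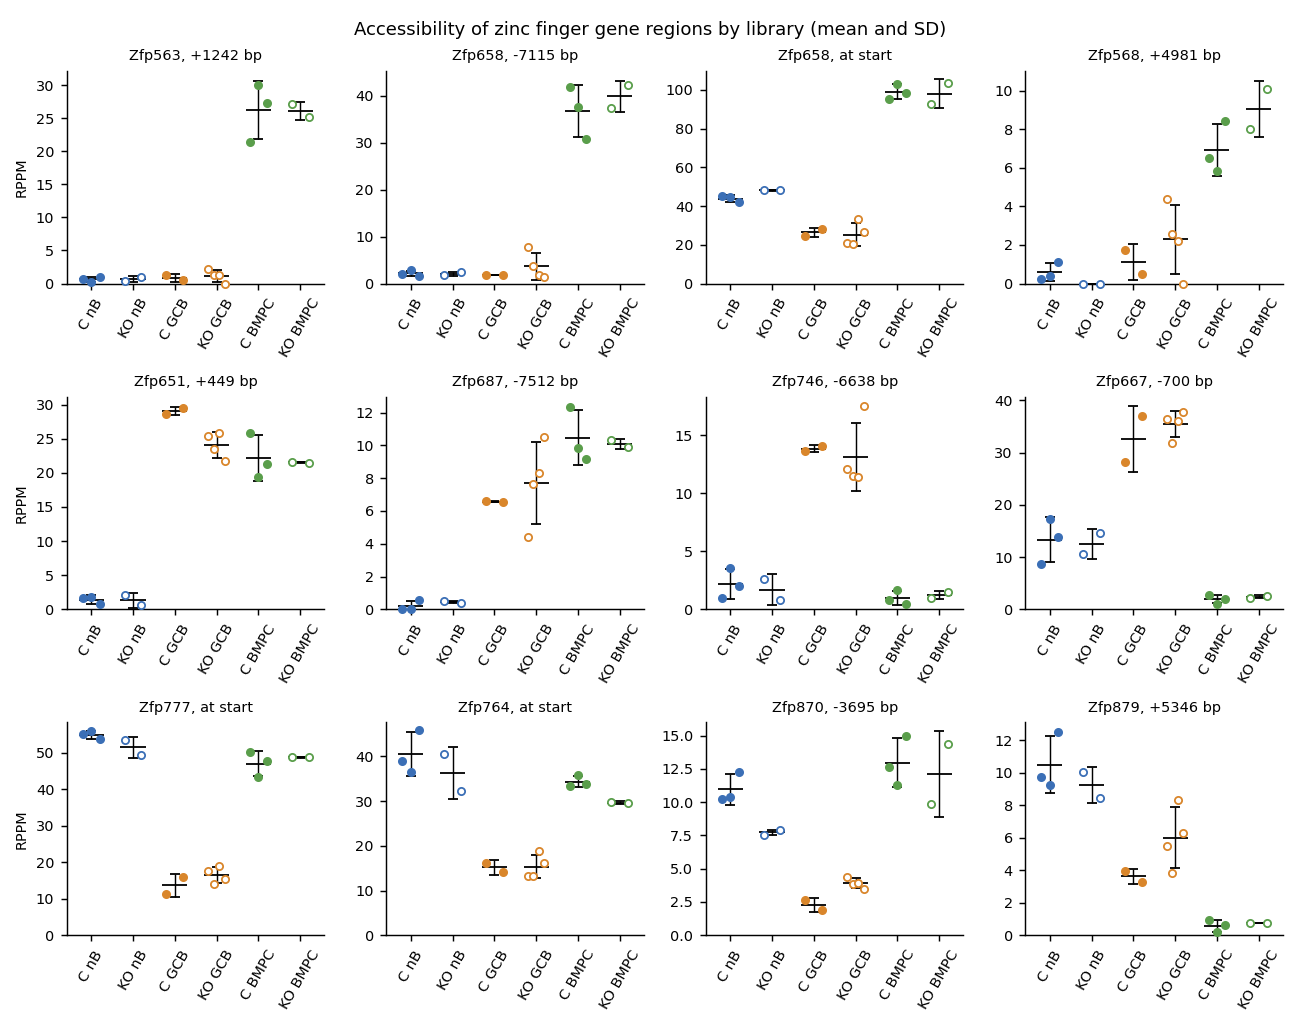
RPPM (y axis) in each library of 12 member regions, by group (x axis), named by gene and distance to the start. Filled points are C and open points KO libraries, bars are the mean and SD. The first row rises in BMPC, the second holds regions that rise in GCB, and in the third row the first 3 panels are lowest in GCB and Zfp879 is lowest in BMPC.

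Of the 153 promoter members, 9 were called lower and 10 higher in C GCB than in C nB, beside 6.9% and 9.07% of all promoter regions. Zfp777 (chr6:47997635-47999014) had 55.1, 56.0 and 53.8 RPPM in C nB, 11.4 and 15.9 in C GCB and 50.2, 43.2 and 47.6 in C BMPC, the deepest fall of a member promoter between C nB and C GCB (-1.95 ± 0.15, adjusted p = 8.68e-11). The promoter of Zfp598, an E3 ligase that marks collided ribosomes, had means of 47.5, 22.4 and 49.2 RPPM in C nB, C GCB and C BMPC, and a region 2000 bp upstream had 6.65, 1.79 and 6.27. The upstream region was no longer called in GCB without C GCB replicate 2 (-1.06, adjusted p = 0.0375), and the promoter was at -1.04 ± 0.15, close to the fold threshold. Zfp764 had 39.0, 36.5 and 46.0 RPPM in C nB, 16.3 and 14.1 in C GCB and 33.4 to 35.8 in C BMPC, in a region whose 31-base words are repeated at 24.6%. The region 3695 bp upstream of Zfp870 fell to 2.64 and 1.87 RPPM in C GCB from 10.2 to 12.3 in C nB and stood at 11.3 to 14.9 in C BMPC.

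Distal regions near 4 further genes were open in naive cells and lowest in plasma cells. The intronic region of Zfp879 (5346 bp downstream, chr11:50649139-50649707) had 9.74, 9.23 and 12.5 RPPM in C nB, 3.96 and 3.28 in C GCB and 0.910, 0.182 and 0.623 in C BMPC (-2.89 ± 0.29 from C nB to C BMPC, adjusted p = 1.45e-09). The region 6372 bp upstream of Zfp592 went from a mean of 12.6 to 7.25 and 0.954 RPPM. The region 3506 bp upstream of Zfp646, in an intron of Zfp668, went from 8.27 to 2.26 and 0.494 RPPM, and its fall in GCB was not called without C GCB replicate 2 (adjusted p = 0.0247). The region 7215 bp upstream of Zfp638, a nuclear nucleic acid binding protein, went from 10.6 to 4.04 and 0.633 RPPM, and 34.5% of its 31-base words are repeated.

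At 3 genes, Zfp507, Zfp710 and Zfp961, 1 region was called higher and another lower in C BMPC than in C nB. At Zfp507, the region 529 bp upstream of the start had 2.68, 3.58 and 2.05 RPPM in C nB and 1.04, 0.365 and 0.623 in C BMPC (-1.17 ± 0.34, adjusted p = 0.00408). The region 3441 bp upstream had 0, 0 and 0.372 RPPM in C nB, at or under the floor, and 1.95, 2.01 and 1.56 in C BMPC, and it was called higher (adjusted p = 0.00896). At Zfp710 on chromosome 7, the region 196 bp upstream of a start had 18.3, 15.1 and 18.2 RPPM in C nB and 7.28, 7.48 and 7.79 in C BMPC, a fall of -1.09 ± 0.20 (adjusted p = 2.9e-05). The region 116 bp downstream of a start had 16.6, 17.9 and 13.4 RPPM in C nB and 38.4, 41.8 and 41.3 in C BMPC, and the rise was called (adjusted p = 3.06e-05). A region of Zfp710 that overlaps another start followed the germinal center pattern, with means of 21.7 RPPM in C nB, 7.95 in C GCB and 23.8 in C BMPC. At the KRAB gene Zfp961, the region 9979 bp upstream fell from 6.12 RPPM in C nB to 0.572 in C BMPC and the region 1997 bp upstream rose from 2.46 to 12.0, while the promoter itself had 46.0 and 47.4. Promoters lowest in GCB also included those of Zfp628 (72.9, 34.2 and 67.7 RPPM in C nB, C GCB and C BMPC), Zfp593 (27.7, 12.5 and 32.6) and Zfp523 (41.2, 23.4 and 65.7), all called higher or lower in at least 1 of the comparisons with GCB.

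The starts of further genes of known role had these values. Zfp622, a ribosome biogenesis factor, had 68.7 to 87.6 RPPM in C nB, 69.1 and 69.8 in C GCB and 73.2 to 79.1 in C BMPC, and C nB overlapped both other groups. Zfp706 had 85.8 to 89.9, 62.0 and 56.2, and 94.9 to 105 RPPM, and Zfp592 57.3 to 69.9, 32.1 and 32.8, and 65.4 to 70.8. The start of Zfp746 had 79.1 to 94.3, 59.4 and 54.3, and 92.5 to 103 RPPM. These 3 genes thus shared a dip in GCB, called for Zfp592 against C BMPC (1.03 ± 0.16). Zfp809, which silences integrated retroviruses through their primer binding site, had 73.3 to 82.0 RPPM in C nB, 41.8 and 44.5 in C GCB and 64.2 to 68.4 in C BMPC (-0.81 ± 0.12 from C nB to C GCB, adjusted p = 5.07e-06). Zfp703, a co-repressor, had means of 56.6 RPPM in C nB, 46.8 in C GCB and 71.3 in C BMPC, and Zfp800 had 89.2, 68.0 and 61.3.

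The remaining genes of known role were weak or unchanged by the call rule. The start of Zfp516, a transcription factor of brown fat genes, had 48.6, 36.8 and 37.5 RPPM in C nB, C GCB and C BMPC. The start of Zfp521, a co-factor of early haematopoietic and B lymphoid cells, had at most 4.22 RPPM in every library, and its change from C nB to C BMPC of -0.85 ± 0.40 (adjusted p = 0.0713) became a call only without C BMPC replicate 1 (-1.42, adjusted p = 0.00256). The nearest member region of Zfp503 lay 4099 bp upstream and that of Zfp652 1937 bp downstream in Phospho1, and they had 0.912 to 4.44 and 2.01 to 6.61 RPPM. Zfp750, Zfp830 and Zfp831 had no member region.

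A KRAB box was found by a strict sequence pattern in 70 of the 136 genes whose proteins could be read from the annotation, with a median of 11 fingers against 9 in the 66 genes without the pattern and up to 33 in 1 protein. A looser pattern, chosen after the matches were seen, added 8 genes, Zfp568 and Zfp777 among them. Between C GCB and C nB, 8 of the 73 promoter regions of genes with the strict pattern were higher and 2 lower, and of the 79 promoter regions without it 2 were higher and 7 lower, where all promoter regions gave 9.07% higher and 6.9% lower. The median change was -0.09 with the pattern and -0.39 without it, beside -0.17 over all promoter regions. Of the 8 higher ones, 2 belong to Zfp781 and 1 to Zfp960, with repeated sequence. Between C BMPC and C GCB the same split gave 3 higher and 4 lower with the pattern, and 13 higher and 5 lower without it, where all promoter regions gave 11.2% higher and 7.15% lower. The difference between the classes was not tested.

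The median promoter change from C nB to C GCB was negative in 9 of 10 clusters of member genes and positive in 1, and a difference between clusters was not tested. Over all 15011 promoter regions 9103 changes were negative and 5907 positive, with a median of -0.17, so a negative median is not particular to clusters. Clusters, defined as at least 4 member genes with starts no more than 1 Mb apart, numbered 10 and held 61 genes. In the cluster of 9 genes on chromosome 7 between positions 134388040 and 135020337, which holds Zfp764, Zfp768, Zfp688 and Zfp629, all 8 promoter regions were lower in C GCB than in C nB at an unadjusted p under 0.05 (median -0.72), 1 of them called. Of all 15011 promoter regions, 5585 were lower at that p and 6.9% were called lower. In the same cluster 4 of 8 were called higher in C BMPC than in C GCB, beside 11.2% of all promoter regions. In KO cells 1 of 8 was called higher in BMPC than in GCB, beside 10.9% of all promoter regions. The median change of the 8 was 0.98 in C, close to the fold threshold, and 0.79 in KO cells. Zfp768 had 18.9 and 18.3 RPPM in C GCB and 54.5, 64.6 and 52.8 in C BMPC. The 10 genes between 21520712 and 23004101 on chromosome 17, all with the KRAB pattern, did not share that fall. Of their 9 promoter regions 1 was called higher in C GCB, Zfp820 with means of 1.14 and 3.62 RPPM, and none lower. All promoter regions gave 9.07% higher and 6.9% lower. The median of the 9 was 0.21. The medians of the 10 clusters between C GCB and C nB ran from -0.72 to 0.21, and neighbouring genes share their chromosomal surroundings and are not independent.

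**Figure D4:**
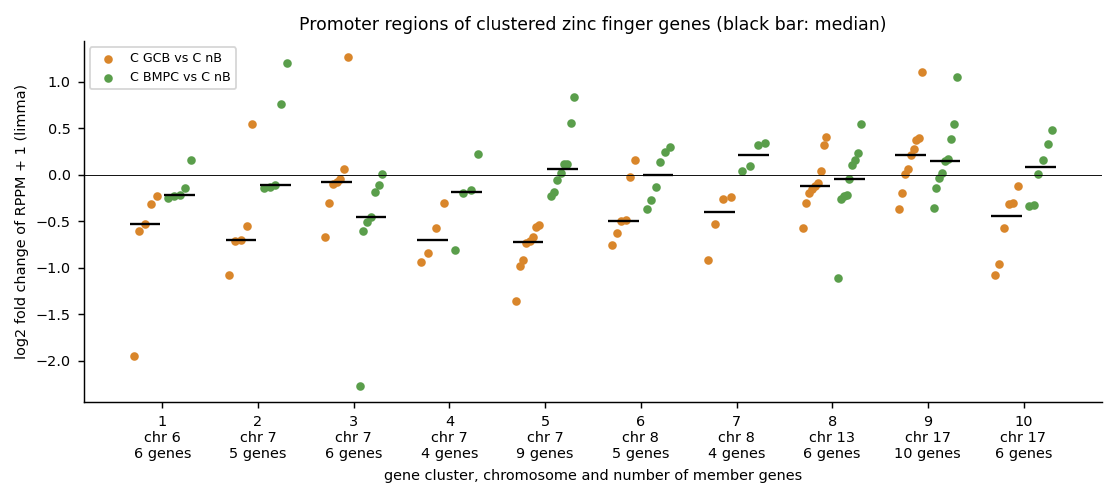
Log2 fold change of RPPM + 1 (y axis) of the promoter regions of clustered genes, by cluster (x axis, with chromosome and number of genes). Orange points compare C GCB and green points C BMPC with C nB, and black bars are medians. All 8 orange points of cluster 5 on chromosome 7 lie below 0, and the orange median of cluster 9 on chromosome 17 lies at 0.21.

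The silencing machinery that KRAB proteins recruit had 35 regions within 10000 bp of the starts of 16 of its 18 listed genes. Between C GCB and C nB 4 were called higher and 4 lower (14.2% and 8.47% of all regions), and between C BMPC and C nB 2 higher and 5 lower (18% and 20.1% of all regions). The promoter of Trim28 had means of 115, 85.2 and 126 RPPM in C nB, C GCB and C BMPC and was not called. Cbx5, which encodes HP1 alpha, rose at its start from 6.83 RPPM in C nB to 15.0 in C GCB and 23.7 in C BMPC. Other regions fell. The start of Cbx1 had 44.1 RPPM in C nB, 21.1 in C GCB and 47.7 in C BMPC, and was called lower in C GCB than in C nB (-1.04 ± 0.15). A region 992 bp from a start of Chd3 went from 12.4 RPPM in C nB to 3.82 in C GCB and 0.971 in C BMPC. A region 2977 bp downstream of a start of Dnmt1, the maintenance methyltransferase, opened in BMPC, with means of 0.680 RPPM in C nB and 13.2 in C BMPC (3.06 ± 0.29, adjusted p = 9.19e-10). The region at the start of Dnmt1 had 59.4, 29.4 and 57.0 RPPM in C nB, C GCB and C BMPC and was not called. Between genotypes limma called none of the 35 regions, beside 0% of all regions in nB, 0.0317% in GCB and 0.104% in BMPC. At such shares a count of 0 says little about these genes.

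The cell type differences recurred in Dnmt3-deficient cells. From KO nB to KO GCB, 25 member regions were higher and 9 lower (18.4% and 7.84% of all regions), a split that became 20 and 14 with trimmed-mean scaling and 18 and 15 with quantile normalization. From KO nB to KO BMPC, 21 were higher and 18 lower (18.4% and 16.9% of all regions), and from KO GCB to KO BMPC 18 were higher and 19 lower (12.1% and 19.9%). Of the regions called in control cells, 74.2% of 31, 87.5% of 40 and 72.7% of 44 were called in the same direction in KO cells for GCB against nB, BMPC against nB and BMPC against GCB. These were 67.6% of 34, 89.7% of 39 and 86.5% of 37 KO calls, and no region was called in opposite directions. The same overlap was not counted over all regions, so whether it is particular to the members was not tested. Tests of the difference between genotypes in each of these changes called none of the 225 regions, where all regions gave 0, 0 and 0 (0% each). Unadjusted p fell under 0.05 for 12, 4 and 7 member regions, and edgeR and DESeq2 also called none of the members to which they gave an adjusted p. Of all 66177 regions, 2744 were positive and 1363 negative at that p for GCB against nB. The numbers were 2613 and 857 for BMPC against nB, and 3062 and 2447 for BMPC against GCB. Over all regions, edgeR's quasi-likelihood test, its likelihood ratio test and DESeq2 called 0%, 0.00604% and 0% for GCB against nB, 0.074%, 0.267% and 0.0738% for BMPC against nB, and 0.0287%, 0.113% and 0.0579% for BMPC against GCB.

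Loss of Dnmt3a and Dnmt3b was the question of the study, and limma called none of the 225 member regions between KO and C cells. In nB limma called 0 of 225 members and 0% of all regions, in GCB 0 members and 0.0317% of all regions, and in BMPC 0 members and 0.104% of all regions. Members with an unadjusted p under 0.05 numbered 3, 23 and 5. At that p, 417 of all 66177 regions were higher and 690 lower in nB. The numbers were 4930 and 2871 in GCB, and 4607 and 1713 in BMPC. In nB and GCB, edgeR (both of its tests) and DESeq2 also called 0, whereas in BMPC edgeR called 2 and DESeq2 1. Over all regions with an adjusted p, edgeR's quasi-likelihood test, its likelihood ratio test and DESeq2 called 0.0106%, 0.0151% and 0.00151% in nB and 0.00151%, 0.0181% and 0% in GCB. In BMPC the same tests called 1.81%, 2.53% and 0.777% of all regions. Over the promoter members, the median absolute log2 fold change was 0.08 in nB, 0.14 in GCB and 0.09 in BMPC, and none of the 153 reached a fitted change of 2-fold in any cell type. The median standard errors were 0.16, 0.15 and 0.16. They rest on a variance common to all groups, so they differ with the number of libraries and do not rank the cell types by precision. A change under the threshold does not show that the genotypes were equal. Distal members were less certain, with median standard errors of 0.31 in nB and BMPC and 0.29 in GCB.

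In BMPC, 3 member regions were higher and 2 lower without Dnmt3a and Dnmt3b at an unadjusted limma p under 0.05. The 3 higher ones were distal. A region 8111 bp upstream of Zfp516 (chr18:83071687-83072159) had 0.650, 0.912 and 0.934 RPPM in C BMPC (5, 5 and 6 reads) and 4.13 and 6.53 in KO BMPC (34 and 35 reads), without overlap. The nB libraries had 0.731 to 1.57 RPPM and the C GCB libraries 2.64 and 1.87. The change was 1.77 ± 0.41 (limma, adjusted p = 0.0332) and was called by edgeR's quasi-likelihood test (adjusted p = 9.71e-05) and DESeq2 (adjusted p = 0.00136), and by limma without KO GCB replicate 1 (adjusted p = 0.00504). The region 5427 bp upstream of Zfp787 (chr7:6113001-6113440) had 1.04, 1.46 and 1.09 RPPM in C BMPC and 5.83 and 5.79 in KO BMPC, and its change of 1.64 ± 0.47 was called by edgeR (adjusted p = 0.000762) but not by limma (adjusted p = 0.103). Both regions stayed low in nB of either genotype.

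The region 7126 bp upstream of Zfp691 (chr4:118853927-118854646), inside the gene Ermap, was open in all cell types. It had 32.6 to 36.3 RPPM in C nB and 29.0 and 32.7 in KO nB, and it fell to 10.3, 6.39 and 10.1 in C BMPC but to 13.7 and 19.0 in KO BMPC. The genotype difference in BMPC was 0.82 ± 0.21 (adjusted p = 0.061). The fall from nB to BMPC was 0.96 ± 0.30 smaller in KO cells on the log2 scale, with an adjusted p of 0.522. Next in order were the 2 regions lower in KO BMPC. Zfp608 529 bp downstream of a start had 2.19 to 3.11 RPPM in C and 1.58 and 1.87 in KO (adjusted p = 0.441). The repeated intron of Zfp839 had 6.37 to 8.21 RPPM in C and 4.74 and 3.73 in KO (adjusted p = 0.506).

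In GCB the smallest p was at the intron of the KRAB gene Zfp944 (8144 bp downstream, chr17:22489726-22490222), which was lower without Dnmt3a and Dnmt3b. The 2 C GCB libraries had 10.1 and 10.8 RPPM and the 4 KO GCB libraries 3.30, 4.46, 4.82 and 4.19, without overlap (-1.15 ± 0.24, adjusted p = 0.0423). In nB and BMPC the genotypes were closer, at means of 8.33 and 7.21 RPPM and of 5.16 and 6.15. The change from GCB to BMPC differed between genotypes by 1.37 ± 0.35, with an adjusted p of 0.180. The promoter of Zfp579 had 7.04 and 5.62 RPPM in C GCB and 16.5, 13.4, 8.33 and 8.39 in KO GCB (adjusted p = 0.183), and the groups did not overlap. The region 5962 bp downstream of the start of Zfp773, with 52.3% of its 31-base words repeated, had 2.64 and 0.937 RPPM in C GCB and 3.07 to 6.36 in KO GCB (adjusted p = 0.197). The intron of Zfp827 2424 bp downstream of a start had 0 and 3.28 against 3.07 to 4.41 RPPM, with overlap (adjusted p = 0.208), and the promoter of Zfp619 had 55.9 and 76.4 against 78.0 to 90.9 (adjusted p = 0.211).

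In nB the 5 smallest p-values were all at promoters that were lower in KO cells, and all had an adjusted p of 1. Zfp871 had 45.8, 44.6 and 47.3 RPPM in C nB and 39.2 and 33.1 in KO nB, and Zfp945 had 20.0, 21.9 and 23.1 against 14.3 and 18.7. Zfp770, Zfp629 and Zfp948 had ratios of KO to C means of 0.741, 0.706 and 0.762. The libraries of the genotypes did not overlap at these 5 promoters, and the differences were smaller than a call required. A small p favours separated libraries, so the lack of overlap adds no evidence here. The regions named in GCB and BMPC were picked in the same way.

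**Figure D5:**
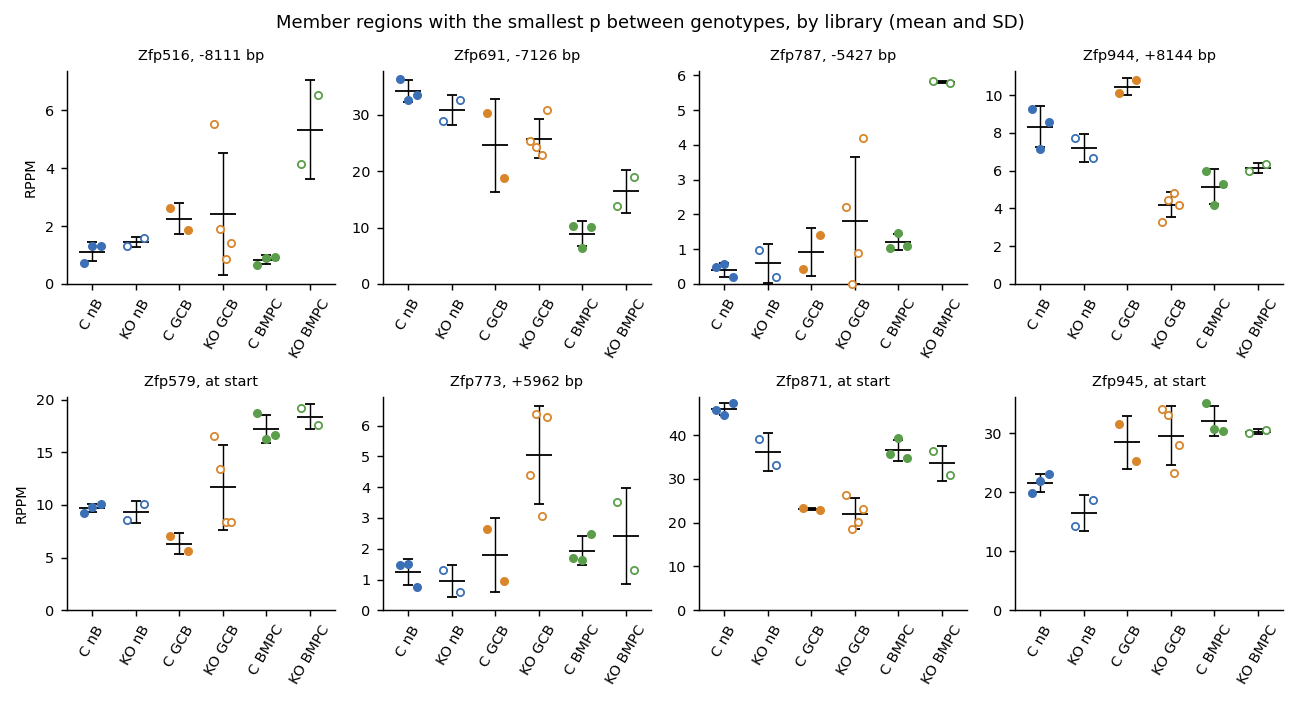
RPPM (y axis) in each library of 8 member regions among those with the smallest p between genotypes, by group (x axis). Filled points are C and open points KO libraries, bars are the mean and SD. Zfp516, Zfp691 and Zfp787 separate KO from C in BMPC, Zfp944 separates them in GCB, and limma called none of the 8, whereas edgeR called Zfp516 and Zfp787 and DESeq2 Zfp516 in BMPC.

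CpG dinucleotides are the sites that Dnmt3a and Dnmt3b methylate. The central 300 bases of 3 of the distal regions with a small p between genotypes are printed on the plus strand of mm9, with each CpG in capitals, to show how many they hold. The distal region of Zfp516, with the smallest p in BMPC, is not among them, and its CpG are not counted here.
Zfp944, intron, chr17:22489824-22490123: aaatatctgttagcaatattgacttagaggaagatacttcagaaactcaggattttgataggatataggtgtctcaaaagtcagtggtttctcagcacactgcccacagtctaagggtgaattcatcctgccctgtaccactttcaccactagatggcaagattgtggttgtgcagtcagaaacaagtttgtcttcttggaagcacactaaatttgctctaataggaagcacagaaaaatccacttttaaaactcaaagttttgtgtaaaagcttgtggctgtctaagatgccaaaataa
Zfp787, upstream, chr7:6113071-6113370: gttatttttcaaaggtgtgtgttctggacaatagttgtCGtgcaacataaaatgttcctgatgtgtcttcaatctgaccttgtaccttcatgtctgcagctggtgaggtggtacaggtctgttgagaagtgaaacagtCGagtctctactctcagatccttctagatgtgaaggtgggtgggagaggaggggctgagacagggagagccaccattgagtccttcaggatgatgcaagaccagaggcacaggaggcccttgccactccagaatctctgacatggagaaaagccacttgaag
Zfp691, upstream, within Ermap, chr4:118854137-118854436: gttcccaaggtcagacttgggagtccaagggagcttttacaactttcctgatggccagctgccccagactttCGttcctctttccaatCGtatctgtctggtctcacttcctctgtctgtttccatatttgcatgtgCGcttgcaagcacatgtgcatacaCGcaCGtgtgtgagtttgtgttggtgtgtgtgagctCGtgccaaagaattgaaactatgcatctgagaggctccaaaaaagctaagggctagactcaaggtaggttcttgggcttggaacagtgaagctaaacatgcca
The window of Zfp944 held 0 CpG, that of Zfp787 2 and that of Zfp691 6, where the median central window held 4 among all distal regions and 5 among the distal members.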

How the data were processed

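ATAC-seq libraries of sorted B cells were analysed from 1 deposited table of 66177 regions on mm9. The authors aligned reads with Bowtie, removed duplicates with Picard 1.127, called peaks with MACS2, merged them over samples and deposited RPPM, an RPM-type unit scaled to 1000000 reads in regions per library. The labels and the paper name different Bowtie and MACS2 versions. The authors left out 1 KO BMPC library, and 16 of 17 samples are in the table. Its columns of the authors' own fold changes, p-values and significance were not used. Dividing RPPM by the value of 1 read gave whole reads for 100% of values (tolerance 1e-06, relative). No library pair agreed within sampling noise.

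limma 3.58.1 was fitted to log2(RPPM + 1) with a mean per group over 16 libraries, a variance trend and Benjamini-Hochberg adjustment, and a call required a 2-fold change with adjusted p no higher than 0.01. edgeR 4.0.16 and DESeq2 1.42.0 were run on the recovered reads as alternatives, and edgeR's quasi-likelihood test called 16484 regions between C GCB and C nB, where limma called 15029. The procedure was tested on simulated data. KRAB boxes and fingers were found in the GENCODE vM1 translations of 136 genes, and repeated sequence as the share of a region's 31-base words seen again in mm9. Replicates are separate mice, or pools of 2 mice for GCB, and n of 2 to 4 limits the precision.

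Members and lists were chosen with earlier results of these data known. Named regions were those called between genotypes, the 5 largest rises and 5 largest falls without overlap in each comparison of control cell types, the 5 smallest p between genotypes in each cell type, the 5 highest levels per kilobase and the region nearest the start of 20 genes of known role. Regions beyond this rule (Zfp612, Zfp507, Zfp710, Zfp961, Zfp628, Zfp593, Zfp523, Zfp768, Zfp820, Zfp781, Zfp960, further regions of Zfp839, Zfp609, Zfp563, Zfp592 and Zfp608) were chosen after their values were seen. Some items are not reported here.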

Additional observations from a re-analysis of the deposited data

Results flagged for a closer look

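Among the 54 named regions, tested in the 4 KO GCB libraries, 2 held a library far from the other 3 by Dixon's criterion, which chance meets in about 1 of 20 groups. At the start of Zfp608, 1 library had 47.1 RPPM and the others up to 58.0. At the region 6638 bp upstream of Zfp746, 1 library had 17.5 RPPM and the lowest had 11.4. Neither region was called between genotypes.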

How the results depend on the processing

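Every call rests on 2 to 4 libraries a group, and weak regions in the shallow GCB libraries rest on few reads. With a pseudocount of 5 RPPM the members called fell to 14, 25 and 25 for C GCB against C nB, C BMPC against C nB and C BMPC against C GCB, and to 17, 23 and 24 for the same KO comparisons. A larger pseudocount shrinks the fold of weak regions by construction. Within 1000 bp of the start, which leaves 153 regions, 19, 16 and 25 were called in C and 20, 15 and 18 in KO cells. For KO against C in GCB, an adjusted p of at most 0.05 gave 1 call (Zfp944). In BMPC that threshold, the fit of the compared groups only and DESeq2 gave 1 call each (Zfp516), and both edgeR tests gave 2 (Zfp516 and Zfp787). The causes were not tested. Leaving out each library in turn gave 23 to 31, 36 to 40 and 40 to 45 calls in the C comparisons, 26 to 37, 29 to 42 and 31 to 39 in the KO comparisons, 0 in nB and GCB between genotypes and 0 to 1 in BMPC. Of 1830 values of 65 named results under alternatives, 8 were weaker, 10 stronger and 1812 kept their side of the threshold. No called result changed sign. A change of sign between values that were both uncalled counted as kept, so the 1812 do not show a stable direction. Quantile normalization moved the median of all regions from 0.05 to -0.06 between C GCB and C nB, and the median of member promoters there from -0.30 to -0.16. Both genotypes have GCB pools named F2 and M1, whose deviations from the group means correlated at 0.0628. With 2 libraries a group in that check, both pools give the same value by construction. It cannot decide whether pools of the same name were paired. A fit of these pools with the replicate block called 0 members between genotypes, as did the same libraries with no block, an alternative chosen after seeing the data.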
